A study of Mus musculus with 16 samples.

Results

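The mouse miR-322, miR-503, miR-351 and miR-542 hairpins lie together on chromosome X, and 7 of their mature arms are described here: both arms of miR-322, miR-503 and miR-351, and miR-542-3p. The rows were chosen by name, after removing text in parentheses, from small RNA tables that hold 2274 names once arms and copies were merged. All 7 members passed the filter on low counts that left 807 names. The 16 libraries came from C2C12, an immortal mouse line of myoblasts that leaves the cell cycle and fuses into myotubes when serum is withdrawn. Wild-type control cells and cells in which miR-206, miR-1a-1 as well as miR-1a-2 were knocked out (triple knockout, tKO) were each sampled in serum-rich growth medium (GM, labelled myoblasts) and after 3 days in low horse serum (DM3, labelled myotubes). Each of the 4 groups holds 4 libraries, from 2 lines with replicates 1 and 2. The lines are labelled Control_1 and Control_2 in control and tKO_C1 and tKO_C2 in tKO. They are called line 1 and line 2 of their genotype here, and the genotypes share no line. All these cells are of a single established line that the labels call PAX7 NEG, and each genotype rests on 2 lines, so p-values measure the spread between these libraries and not between independent animals.

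A hairpin gives a 5p and a 3p arm, and the arm loaded into Argonaute recognises messenger RNAs mainly through its seed, bases 2 to 8 from the 5′ end. miR-322, the mouse counterpart of human miR-424, and miR-503 are known in C2C12 cells as miRNAs that accumulate as myoblasts differentiate and that lower the phosphatase Cdc25A, an activator of cyclin-dependent kinases. Their 5p arms belong to the miR-15/16 family of cell-cycle miRNAs, while miR-351-5p has the seed of the miR-125 family, which descends from lin-4.

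In the GRCm38 annotation of GENCODE M21, all 4 hairpins are on the minus strand. Mir322 (ENSMUSG00000065418.1) is at chrX:53054255-53054349, Mir503 (ENSMUSG00000076122.1) at chrX:53053984-53054054, Mir351 (ENSMUSG00000065503.1) at chrX:53053255-53053353 and Mir542 (ENSMUSG00000076140.1) at chrX:53049403-53049487. The first 3 are 200 and 630 bases apart, and Mir542 follows 3767 bases after Mir351. The lincRNA Gm28730 lies between Mir351 and Mir542, and the noncoding C430049B03Rik lies 696 bases upstream of Mir322. The hairpins overlap no exon of these genes.

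The mature arms are printed because their seeds decide which other miRNAs they are compared with. Sequences are those of RefSeq on GRCm38.p6, 5′ to 3′, with the seed in capitals:
miR-322-5p: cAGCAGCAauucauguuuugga
miR-322-3p: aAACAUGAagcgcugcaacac
miR-503-5p: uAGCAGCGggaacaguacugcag
miR-503-3p: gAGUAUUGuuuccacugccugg
miR-351-5p: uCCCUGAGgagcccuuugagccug
miR-351-3p: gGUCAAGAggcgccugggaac
miR-542-3p: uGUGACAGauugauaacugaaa

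For comparison, 2 relatives from each seed group are shown, which were the most abundant of their groups:
miR-16-5p: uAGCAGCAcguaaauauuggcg
miR-15b-5p: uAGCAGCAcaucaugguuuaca
miR-125b-5p: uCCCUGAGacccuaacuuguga
miR-125a-5p: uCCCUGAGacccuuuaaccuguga
miR-322-5p has the whole seed AGCAGCA of miR-15 and miR-16. miR-503-5p shares its first 6 bases, AGCAGC, and differs in the last. miR-351-5p shares CCCUGAG with miR-125a-5p and miR-125b-5p, and the remaining 4 members share a seed with no other member.

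The libraries held 112792 to 6543570 reads. miR-206-3p, which the knockout removes, was at 837 to 1466 CPM, reads scaled to the library total in control GM, at 19951 to 57442 CPM in control DM3 and at 0.808 to 70.9 CPM in tKO. The muscle miRNA miR-133a-3p stood at 2.22 to 14.9 CPM in all GM libraries, at 1130 to 2190 CPM in control DM3 and at 65.8 to 762 CPM in tKO DM3. The share of reads that match an annotated miRNA hairpin ran from 86.4% to 88.5% for control and from 80.1% to 88.5% for tKO in GM, and in DM3 from 65.9% to 82.7% for control and from 45.1% to 86.6% for tKO. The tKO DM3 library of line 1, replicate 1 stood apart, with the fewest reads, the lowest matched share and 35.4% of its reads under miR-6240 or miR-6236. Values below are CPM scaled by edgeR's TMM factors and are given in the order line 1 replicate 1, line 1 replicate 2, line 2 replicate 1, line 2 replicate 2.

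The cluster as a whole made up 4432 ± 573 CPM of control GM, 3481 ± 228 of tKO GM, 7742 ± 2283 of control DM3 and 7135 ± 2078 of tKO DM3 (unscaled CPM, SD, n = 4 each). DM3 was thus 1.75 times GM in control and 2.05 times in tKO. With TMM scaling the sums were 5127 ± 346, 3809 ± 523, 6703 ± 1129 and 6296 ± 1593 CPM in the same order, and these ratios were 1.31 and 1.65. Most of this was a single arm. miR-351-5p supplied 70.2% of the summed reads in control GM, 67.7% in tKO GM, 74.96% in control DM3 and 68.6% in tKO DM3, as means of 4 libraries. miR-322-3p came next, with 14.1% to 18.8%. The arms known for cell-cycle control were minor: miR-322-5p gave 1.68% to 2.98% and miR-503-5p 1.60% to 3.73% of the cluster. The sums count miR-542-3p as listed, at 2.19% to 6.30%, though most of its reads do not match its hairpin. Other arms of the locus are not in these sums.

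Of the 7 members, 1 fell and none rose between GM and DM3 in control cells, and 1 rose and none fell in tKO cells, by the quasi-likelihood test of edgeR, with p adjusted over 807 names by Benjamini-Hochberg. Of all names tested, 27.6% were called in control and 19.7% in tKO, and both shares of members were at or below that background. The calls in control depended on the scaling: with total counts 2 members rose and none fell, miR-322-3p by 0.87 (edgeR adjusted p = 0.0266) and miR-351-5p by 0.91 (adjusted p = 0.0346) on the log2 scale, and miR-351-3p was no longer called, beside 26.6% of all names called. Total counts also moved the calls over all names in control from 128 higher and 95 lower to 153 higher and 62 lower, and in tKO from 92 and 67 to 110 and 43. The median log2 fold change of the members was -0.29 in control and 0.55 in tKO, beside 0.02 and 0.01 over all names. In DM3 against GM, the libraries of the groups did not overlap for 1 of 7 members in control, against 32.6% of all names, and for 2 of 7 in tKO, against 19%. With bulk RNA, fewer cells of a type and less of a miRNA per cell cannot be told apart.

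miR-322-5p, the arm with the full miR-15/16 seed, was at 51.4, 166, 181 and 199 CPM in control GM and at 108, 60.6, 113 and 169 CPM in control DM3. In tKO it was at 150, 44.1, 94.8 and 134 CPM in GM and at 167, 172, 207 and 143 CPM in DM3. The groups overlapped in every comparison. The lowest GM values were those of line 1 replicate 1 in control and line 1 replicate 2 in tKO, and the tKO DM3 libraries lay closest together. The log2 fold change of DM3 over GM was -0.41 in control (SE 0.45, edgeR adjusted p = 0.539) and 0.71 in tKO (SE 0.45, adjusted p = 0.2997), and neither passed the test. The 95% interval of the log2 fold change ran from -1.36 to 0.53 in control and from -0.24 to 1.66 in tKO. Over 33 alternatives the value ranged from -0.80 to -0.0093 in control and from 0.44 to 1.06 in tKO, and none passed the threshold.

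miR-322-3p, the other arm of the hairpin, was the more abundant product. It was at 386, 852, 845 and 825 CPM in control GM and at 734, 894, 1036 and 1425 CPM in control DM3. In tKO GM it was at 716, 325, 519 and 619 CPM, and in tKO DM3 at 982, 1346, 1240 and 1012 CPM. All 4 tKO DM3 libraries were above all 4 tKO GM libraries, while the control groups overlapped. It rose 2.10-fold in tKO (log2 1.07, SE 0.34, edgeR adjusted p = 0.0316), and its log2 fold change in control was 0.49 (SE 0.33, adjusted p = 0.303). The tKO call was lost in 12 of the 16 fits that leave out a library, with log2 fold changes of 0.88 to 1.21. Without the tKO DM3 library that stood apart, it was 1.13 with an adjusted p of 0.0434.

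miR-503-5p was at 90.4, 156, 225 and 154 CPM in control GM and at 128, 66.4, 115 and 124 CPM in control DM3. In tKO its levels were 303, 64.0, 123 and 99.6 CPM in GM and 194, 235, 178 and 83.0 CPM in DM3. The groups overlapped, and tKO GM alone held both the lowest and the highest of the 16 values. The log2 fold changes of -0.54 in control (SE 0.47, edgeR adjusted p = 0.424) and 0.22 in tKO (SE 0.47, adjusted p = 0.796) did not pass the test.

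miR-503-3p was at 279.5, 285, 255 and 293 CPM in control GM and at 105, 254, 228 and 319 CPM in control DM3. In tKO GM it was at 189, 167, 177 and 183 CPM, and in tKO DM3 at 194, 378, 239 and 232 CPM. The GM libraries lay close together within each genotype, with all tKO values under all control values. Every tKO DM3 library was also above every tKO GM library, narrowly so for the pair at 189 and 194 CPM. The log2 fold change of DM3 over GM was -0.29 in control (SE 0.34, edgeR adjusted p = 0.571) and 0.55 in tKO (SE 0.34, adjusted p = 0.2798), neither past the threshold.

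miR-351-5p, the dominant arm of the cluster and a seed relative of miR-125, was at 4452, 3357, 3621 and 3035 CPM in control GM and at 6252, 3908, 5865 and 4203 CPM in control DM3. In tKO it was at 2536, 2113, 3136 and 2522 CPM in GM and at 4444, 3837, 6316 and 2897 CPM in DM3. DM3 libraries lay within the GM range in both genotypes, 2 of 4 in control and 1 of 4 in tKO. Replicate 1 was above replicate 2 in all 8 pairs of libraries that share a group and line. Within replicate 1 and within replicate 2, the DM3 libraries were all above the GM libraries in both genotypes. Such a separation in 1 direction within both replicates was found for 2 of 7 members in control, against 43% of all names, and for 4 of 7 in tKO, against 24.7%. Its log2 fold change was 0.48 in control (SE 0.28, edgeR adjusted p = 0.213) and 0.76 in tKO (SE 0.28, adjusted p = 0.0648). The tKO value passed the threshold under 11 of 33 alternatives and had the same sign under all 33. Among the 11 were the replicate block and the line block, where 20.8% and 21.7% of all names were called.

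miR-351-3p, the minor arm, was at 47.3, 39.96, 58.0 and 41.3 CPM in control GM and at 28.5, 11.5, 27.7 and 18.7 CPM in control DM3. In tKO it was at 36.1, 23.3, 33.8 and 21.1 CPM in GM and at 26.7, 29.4, 20.5 and 16.2 CPM in DM3. No control DM3 library reached the control GM range, while the tKO groups overlapped. It fell by 1.16 on the log2 scale in control (SE 0.38, edgeR adjusted p = 0.0265), and the log2 fold change in tKO was -0.32 (SE 0.37, adjusted p = 0.613). The counts behind it were low, at 4 to 222 reads per library. The control call was lost without line 2 replicate 1 of control GM (adjusted p = 0.105) and without line 1 replicate 2 or line 2 replicate 2 of control DM3 (adjusted p = 0.115 and 0.0568). With scaling by total counts it was -0.75, with an edgeR adjusted p of 0.199.

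**Figure D1:**
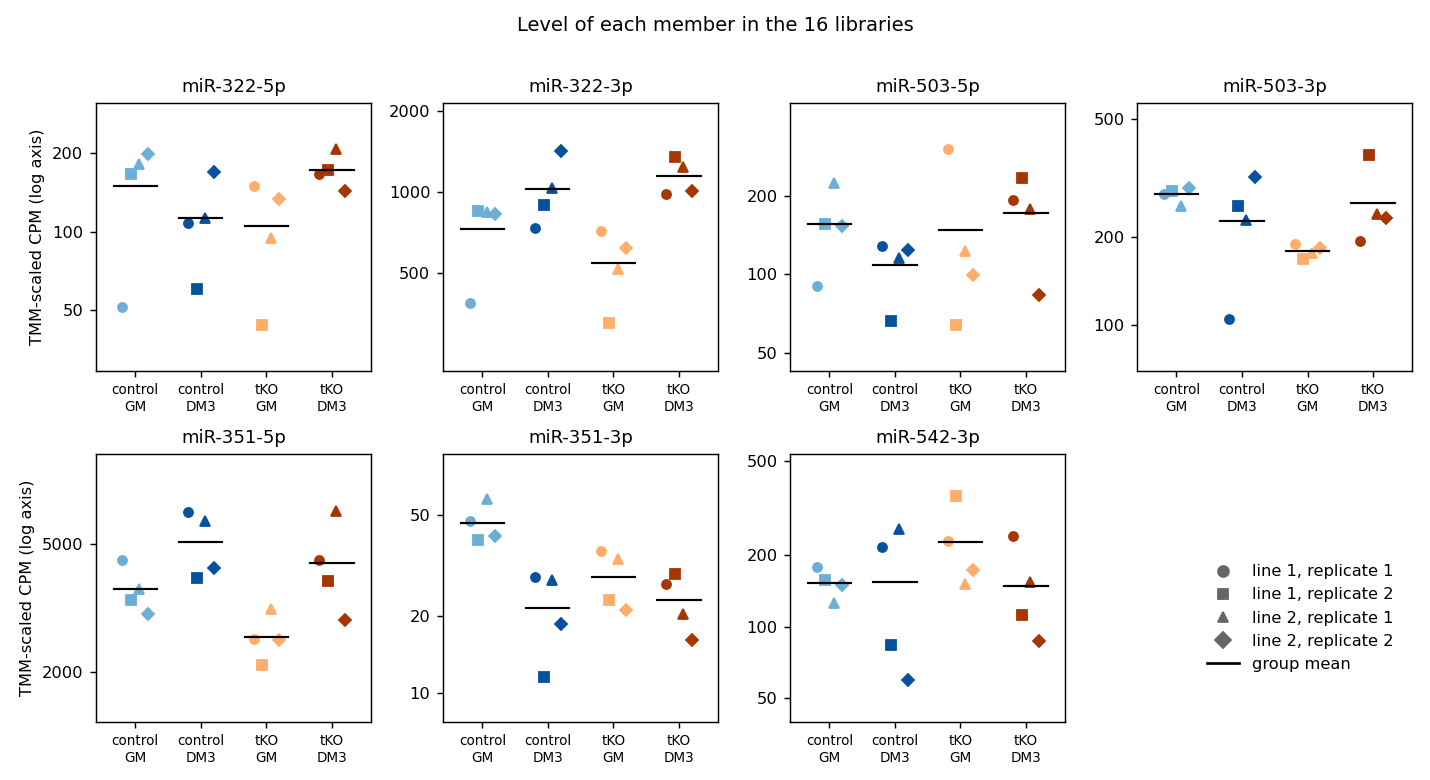
TMM-scaled CPM of each member on a log axis, by group, with 1 point per library and the group mean as a bar. Marker shape gives line and replicate. Control DM3 lies below control GM without overlap for miR-351-3p, and tKO DM3 lies above tKO GM without overlap for miR-322-3p and miR-503-3p.

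Only 25.98% of the reads listed under miR-542-3p matched its hairpin. Of 5446 reads, 73.2% carried a mismatch and 71.9% were shorter than 18 nt, whereas in the other members 6.94% to 13.5% carried a mismatch. The leading sequence had 14 bases and 2555 reads (46.9%), and the next had 15 bases and 917 reads (16.8%). Their mismatches are A12G and A13G, with the base of the miRNA first, the position counted from the 5′ end of the read and the base of the read last, in capitals here. Each of these reads is found without mismatch in the lincRNA Gm42418 of GENCODE M21. The leading read without mismatch had 23 bases and 741 reads (13.6%). In this order they are:
14 nt: acagattgataGct
15 nt: gacagattgataGct
23 nt: tgtgacagattgataactgaaag

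As listed, miR-542-3p was at 179, 158, 125 and 149.9 CPM in control GM, at 216, 83.7, 258 and 59.5 CPM in control DM3, at 230.0, 355, 151 and 172 CPM in tKO GM and at 241, 112, 155 and 86.8 CPM in tKO DM3. The log2 fold changes of DM3 over GM were -0.00 in control (edgeR adjusted p = 0.997) and -0.65 in tKO (SE 0.47, adjusted p = 0.356). Reads that match the Mir542 hairpin gave 26.6 ± 7.71 CPM in control GM, 38.9 ± 28.5 in tKO GM, 28.3 ± 5.68 in control DM3 and 52.5 ± 21.4 in tKO DM3 (unscaled CPM, SD, n = 4 each). Counted that way, the tKO log2 fold change was 0.31, the opposite sign of the listed value.

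A count of hairpin-matched reads only, an alternative chosen after the data were seen, bears on the other members too. It keeps reads whose listed sequence has at least 16 nt and matches a hairpin exactly within 3 bases of the mature start, and 396 names passed the filter. In control, 2 of 7 members were then called: miR-322-3p rose by 0.84 (edgeR adjusted p = 0.0255) and miR-351-5p by 0.82 (adjusted p = 0.0254) on the log2 scale. In tKO the same 2 arms were called, with log2 fold changes of 1.28 (edgeR adjusted p = 0.00180) and 0.96 (adjusted p = 0.0111). Of all names, 30.3% were called in control and 27.3% in tKO. miR-351-3p was at -0.83 in control under this count (edgeR adjusted p = 0.0916), and miR-322-5p and miR-503-5p passed in neither genotype.

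Between genotypes, no member was called in either medium by edgeR with Benjamini-Hochberg adjustment, nor at an unadjusted p under 0.05, and DESeq2 also called none. Of all names, 1.12% were called in GM and 0.867% in DM3. In GM the log2 fold changes of tKO over control were -0.51 for miR-322-5p, -0.42 for miR-322-3p, -0.09 for miR-503-5p, -0.64 for miR-503-3p, -0.49 for miR-351-5p, -0.71 for miR-351-3p and 0.57 for miR-542-3p. The smallest unadjusted p among these edgeR tests was 0.0601, for miR-351-3p (adjusted p = 0.692). The libraries of the 2 genotypes did not overlap in GM for miR-503-3p and miR-351-3p, 2 of 7 members, against 8.92% of all names. In DM3 the values were 0.61, 0.16, 0.67, 0.20, -0.21, 0.13 and -0.07 in the same order, with overlap for all 7, against 4.71% of all names without overlap. On hairpin-matched reads, that of miR-542-3p in DM3 was 0.91, of the other sign (edgeR unadjusted p = 0.0546, adjusted p = 0.259).

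Whether differentiation differed between the genotypes was tested with an interaction term. No member passed, and of all names 0% did, with 37 names and no member at an unadjusted p under 0.05. The interaction was above 0 for 6 of 7 members, from 0.28 for miR-351-5p to 1.12 for miR-322-5p (SE 0.64, edgeR adjusted p = 0.937), and was -0.65 for miR-542-3p as listed. Over all names, the interaction was above 0 for 425 of 807, with a median of 0.05. Counted on hairpin-matched reads, that of miR-542-3p was 0.30 (edgeR adjusted p = 0.99). So the 2 calls above, each in 1 genotype, are not shown to differ between genotypes.

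**Figure D2:**
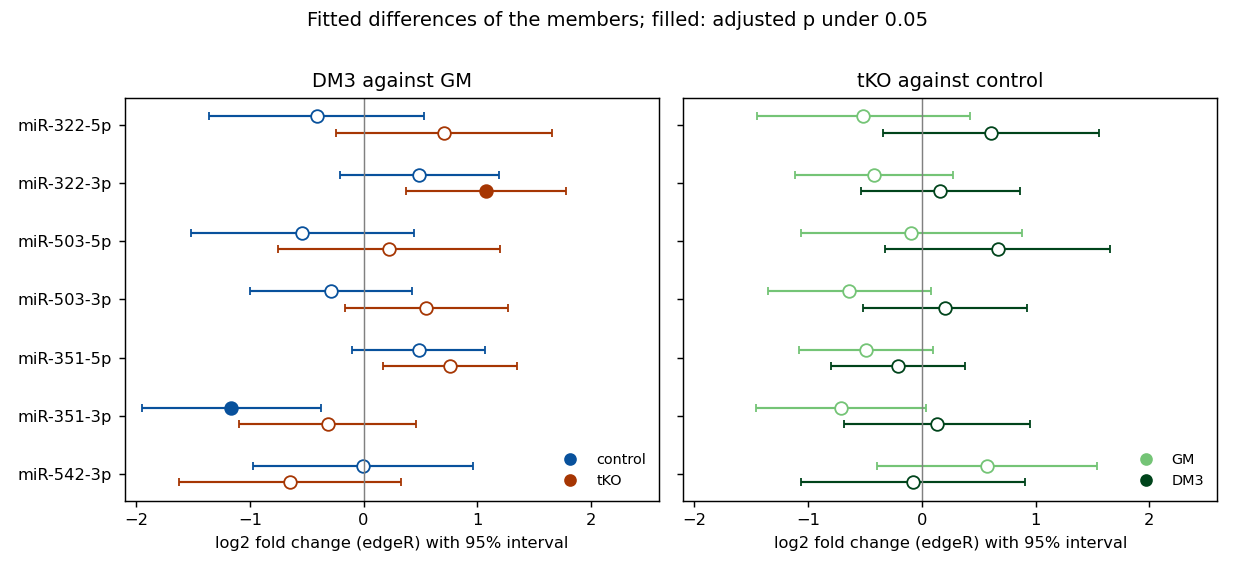
Fitted log2 fold changes of the members with 95% intervals on the degrees of freedom of the edgeR test, not adjusted for the number of names, for DM3 against GM (left, by genotype) and tKO against control (right, by medium). Filled points have an adjusted p under 0.05: miR-351-3p in control at -1.16 and miR-322-3p in tKO at 1.07.

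The balance of arms within a hairpin needs no scaling between libraries. For miR-322, the 5p share of both arms was 11.7%, 16.3%, 17.7% and 19.5% in control GM and 12.8%, 6.35%, 9.84% and 10.6% in control DM3. In tKO it was 17.3%, 11.9%, 15.4% and 17.8% in GM and 14.5%, 11.3%, 14.3% and 12.4% in DM3. The means were 16.3% ± 3.30 and 9.91% ± 2.69 in control (SD, n = 4 each), with overlap in 1 library, and the two-sided exact permutation p was 0.0571 (0.229 adjusted over 12 tests). The tKO means of 15.6% ± 2.66 and 13.1% ± 1.55 gave an exact permutation p of 0.143 (n = 4 each).

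miR-351 was nearly all 5p, with 98.7% ± 0.227 in control GM and 99.6% ± 0.0811 in control DM3, and 98.9% ± 0.235 and 99.4% ± 0.180 in tKO (SD, n = 4 each). DM3 was above GM without overlap in both genotypes. How often arm shares of all hairpins do not overlap is not given, so this only describes these libraries. The exact permutation p was 0.0286 in each, the smallest that 4 against 4 libraries can give, and 0.171 after adjustment over the 12 tests of arms. An adjusted p under 0.05 would need most of the 12 tests at this smallest p. miR-503 had the most even arms and the widest spread: 5p shares ran from 20.7% to 61.6% over the 16 libraries, with group means of 35.3%, 41.4%, 34.3% and 39.3% in control GM, tKO GM, control DM3 and tKO DM3. No comparison of miR-503 had an exact permutation p under 0.571.

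**Figure D3:**
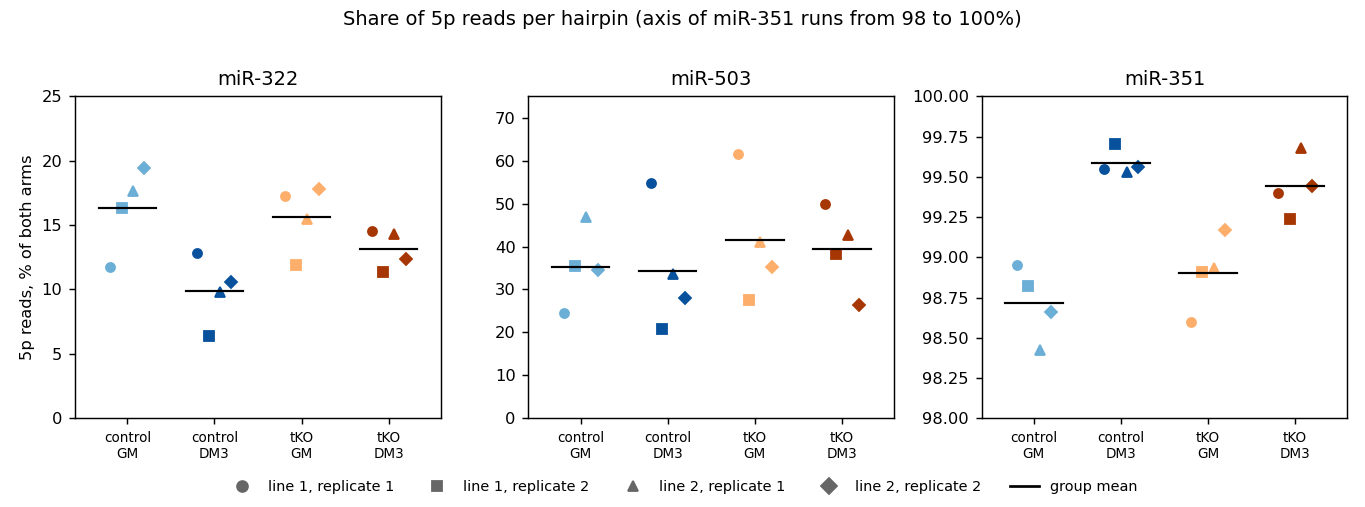
Share of 5p reads among the reads of both arms, in percent, by group, with 1 point per library and the group mean as a bar. The axis of miR-351 runs from 98% to 100% only. Control DM3 sits low for miR-322, and miR-503 overlaps throughout.

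Where the arms begin was read from hairpin-matched reads, a measure taken up after the data were seen and given as a description. The RefSeq start held for 97.2% of miR-322-5p, 99.7% of miR-503-5p, 99.8% of miR-351-5p, 98.5% of miR-542-3p and 86.9% of miR-351-3p reads. The 3p arms of miR-322 and miR-503 varied: 68.5% of miR-322-3p reads began at the RefSeq start, 12.1% were 1 base longer at the 5′ end and 19.2% were 2 bases longer. For miR-503-3p, 53.3% began at the RefSeq start and 46.4% were 1 base longer. The longer forms are printed because they carry other seeds, in capitals:
miR-503-3p, 1 base longer: gGAGUAUUguuuccacugccugg
miR-322-3p, 1 base longer: aAAACAUGaagcgcugcaacac
miR-322-3p, 2 bases longer: cAAAACAUgaagcgcugcaacac

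The hairpins show where these starts fall, with the mature arms in capitals and the 5p arm first:
Mir322: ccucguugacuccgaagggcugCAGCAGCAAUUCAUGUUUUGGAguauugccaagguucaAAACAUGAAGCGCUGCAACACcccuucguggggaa
Mir503: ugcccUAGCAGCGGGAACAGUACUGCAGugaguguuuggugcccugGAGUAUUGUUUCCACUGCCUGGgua

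The longer miR-503-3p form made up 62.7%, 52%, 61.7% and 51.3% of its matched reads in control GM and 37.8%, 28.7%, 20.4% and 31.6% in control DM3. In tKO it made up 59.2%, 42.9%, 63.3% and 48.9% in GM and 46.2%, 45.7%, 38.6% and 37.9% in DM3. Control DM3 was below control GM in all libraries, and the tKO groups overlapped. No share of all names without overlap is given for start positions, so this and the separations below only describe these libraries. On the TMM scale the longer form had 146 ± 11.5 CPM in control GM and 61.3 ± 24.8 in control DM3, against 111 ± 20.9 and 151 ± 58.9 for the RefSeq start (SD, n = 4 each), so the 2 group means differed in opposite directions. The libraries did not overlap for the longer form and overlapped for the RefSeq start. The shares rest on few reads in some libraries, with 26 matched reads in line 1 replicate 1 of tKO DM3 and 37 in that of control DM3. For miR-322-3p the share at the RefSeq start was 69.2% ± 2.00 in GM and 68.7% ± 1.06 in DM3 for control, and 70.5% ± 2.06 and 65.9% ± 1.60 for tKO (SD, n = 4 each). Here the control groups overlapped, while all tKO DM3 libraries, at 64.2% to 67.999%, were below all tKO GM libraries, at 68.5% to 72.7%.

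**Figure D4:**
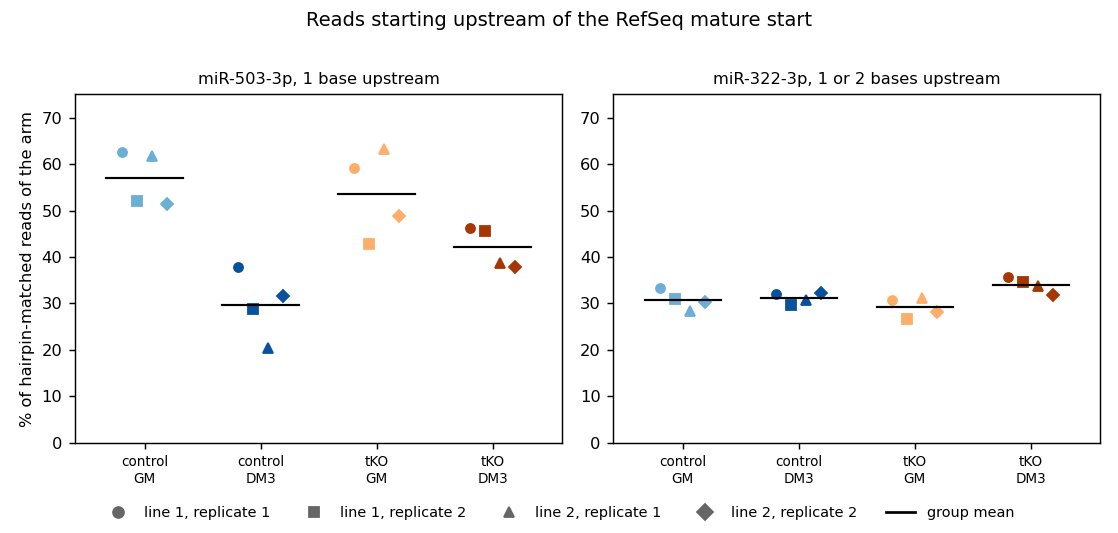
Percent of hairpin-matched reads of miR-503-3p and miR-322-3p that begin upstream of the RefSeq start, by group, with 1 point per library and the group mean as a bar. For miR-503-3p, all control DM3 libraries lie below all control GM libraries. For miR-322-3p, all tKO DM3 libraries lie above all tKO GM libraries.

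Bases at the 3′ end that the hairpin does not encode, are counted by the tables in columns of their own. The listed sequence leaves them out: 83.8% of the single-base tails of miR-351-5p differ from the last base of the sequence they are listed with. In the other members this share ran from 54.9% for miR-351-3p to 97.0% for miR-503-3p. Lengths and hairpin matches above are of the listed sequences, so a read can match the hairpin exactly and carry such a tail. Over all libraries, tails were on 28.95% of the reads of all names together. Among the members the share ran from 10.8% for miR-322-5p to 58.7% for miR-351-5p and 68.6% for miR-542-3p as listed, and was 21.5% for hairpin-matched miR-542-3p reads. Tails were on 60.8% of miR-351-5p reads in control GM, 56.2% in tKO GM, 63.8% in control DM3 and 60.3% in tKO DM3. Over all libraries a single T made up 25.5% and a single A 11.3% of miR-351-5p reads. A single T was on 12.97% of miR-322-3p reads, while a single A was the main tail of miR-503-5p (17.2%) and miR-503-3p (15.0%). None of 25 exact permutation tests on tail shares had an adjusted p under 0.05, and the lowest was 0.357. To pass, most of the 25 tests would need the smallest p that 4 against 4 libraries can give. These tests therefore could hardly pass, and no lack of difference is read from them. Groups without overlap were control GM and DM3 for miR-322-5p, at 16.0% and 6.36%, and tKO GM and DM3 for miR-322-3p, at 19.6% and 15.1%, each with an exact permutation p of 0.0286 (n = 4 each). How often tail shares of all names do not overlap is not given, so these separations are a description. The miR-322-5p mean in control GM includes 1 library at 28%, from 7 of 25 reads. Without it, the difference of DM3 from GM was -5.61 percentage points in place of -9.61.

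The members were then set against miRNAs of the same seeds. Of 5 relatives of miR-322-5p and miR-503-5p, 4 fell in control DM3 by edgeR with Benjamini-Hochberg adjustment: miR-15a-5p by 1.70 (adjusted p = 0.0282), miR-15b-5p by 1.56 (adjusted p = 0.00129), miR-16-5p by 1.44 (adjusted p = 0.0265) and miR-497a-5p by 1.21 (adjusted p = 0.0372) on the log2 scale. These 4 of 5 stand against 27.6% of all names called. Counts were low for miR-15a-5p, with 0, 4, 4 and 44 reads in control DM3 and 6 to 174 in control GM, and for miR-497a-5p, with 4 to 66 and 10 to 245 reads. In the 16 fits that leave out a library, the call was lost in none for miR-15b-5p, in 5 for miR-15a-5p, in 6 for miR-16-5p and in 6 for miR-497a-5p. Over all alternatives run, miR-497a-5p was called in 17 of 32, miR-15a-5p in 22 of 32, miR-16-5p in 25 of 33 and miR-15b-5p in 32 of 33. On hairpin-matched reads 3 of the 5 were called in control, with miR-497a-5p at -0.97 (edgeR adjusted p = 0.0774). miR-195a-5p was at -0.74 (edgeR adjusted p = 0.386), and none of the 5 was called in tKO, with 1 at an unadjusted p under 0.05, miR-15b-5p, which was called there under 3 of 33 alternatives. The median of the 5 was -1.44 in control and -0.44 in tKO, beside 0.02 and 0.01 over all names. Of the relatives of miR-351-5p, miR-125b-5p fell by 1.502 in control (edgeR adjusted p = 0.000368) and by 1.29 in tKO (adjusted p = 0.00235), and miR-125a-5p by 0.99 in control (adjusted p = 0.0180), with -0.73 in tKO (adjusted p = 0.0951). The control call of miR-125a-5p was lost in 5 of the 16 fits that leave out a library, and both calls of miR-125b-5p were kept in all 16. In tKO, miR-125a-5p was called under 6 of 33 alternatives, among them the hairpin match (log2 -0.65, edgeR adjusted p = 0.0317).

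How much of each seed group the cluster supplied is given per library. miR-351-5p made up 5.86%, 5.51%, 5.91% and 5.40% of its group with miR-125a-5p and miR-125b-5p in control GM, and 20.8%, 14.9%, 18.9% and 13.6% in control DM3. In tKO it made up 5.99%, 4.41%, 5.80% and 4.28% in GM and 26.2%, 16.7%, 16.2% and 9.10% in DM3. No DM3 library reached down to a GM library in either genotype. How often such shares do not overlap in other seed groups is not given, so this separation is a description. The means were 5.67% ± 0.256 and 17.1% ± 3.38 in control, and 5.12% ± 0.900 and 17.04% ± 6.9998 in tKO (SD, n = 4 each), and the exact permutation p, two-sided, was 0.0286 in each and 0.0762 after adjustment over 8 tests. An adjusted p under 0.05 would need most of the 8 tests at 0.0286, the smallest p that 4 against 4 libraries can give. Without the tKO DM3 library that stood apart, the tKO difference was 8.89 percentage points in place of 11.9.

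miR-322-5p and miR-503-5p together made up 8.04%, 13.9%, 14.2% and 12.98% of the AGCAGC group in control GM and 31.4%, 18.1%, 25.2% and 18.96% in control DM3. In tKO they made up 17.2%, 7.89%, 9.86% and 10.1% in GM and 32.1%, 22.8%, 20.4% and 12.5% in DM3. The control groups did not overlap and the tKO groups did, again without a share of other seed groups to set beside it. The means were 12.3% ± 2.86 and 23.4% ± 6.21 in control, and 11.2% ± 4.06 and 21.98% ± 8.09 in tKO (SD, n = 4 each). The 8 tests above include 4 of this summed share, whose p-values are not given because it is a sum over members.

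**Figure D5:**
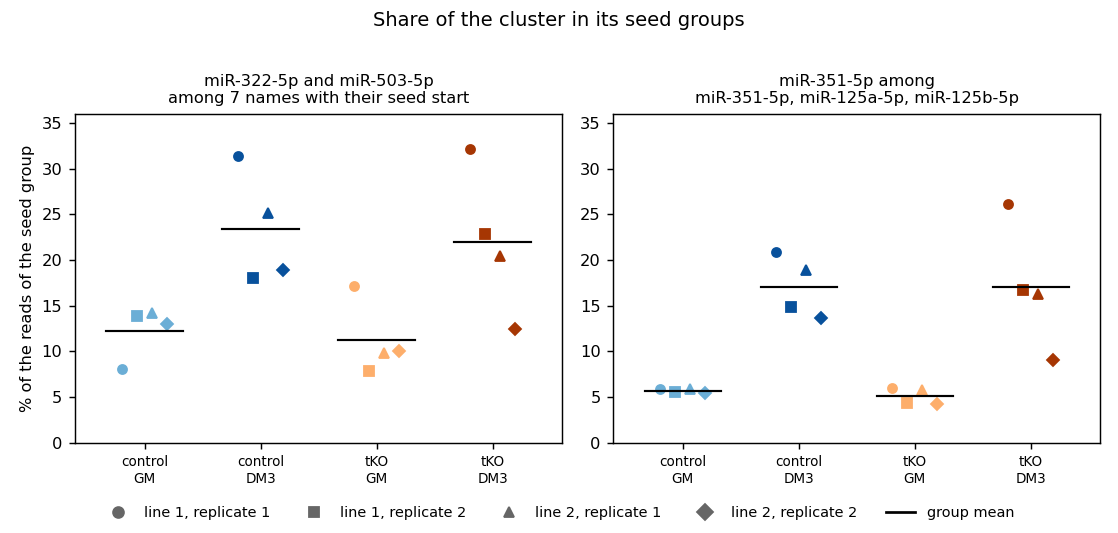
Share of the cluster in the reads of its 2 seed groups, in percent, by group, with 1 point per library and the group mean as a bar. For miR-351-5p the DM3 libraries, at 9.10% to 26.2%, lie above all GM libraries, at 4.28% to 5.99%.

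The other arms of the locus, miR-542-5p and those of miR-450a and miR-450b, were mostly rare. Of these 6, 3 passed the filter on low counts and none was called by edgeR in any comparison. An unadjusted edgeR p under 0.05 was found for 1, miR-450b-5p at -1.13 in control (adjusted p = 0.105). The same test called 27.6% of all names between media for control and 19.7% for tKO. It called 1.12% between genotypes in GM, 0.867% in DM3 and 0% for the interaction. Out of 807 names, 314, 262, 65, 90 and 37 had an unadjusted edgeR p under 0.05, in the same order. miR-450a-5p was at 200 ± 77.1 CPM in control GM and 260 ± 46.1 in tKO DM3 (TMM-scaled, SD, n = 4 each). Its log2 fold change of DM3 over GM was -0.0060 in control (edgeR adjusted p = 0.996) and 0.45 in tKO (adjusted p = 0.471). miR-450a-5p was the name whose level followed miR-322-5p most closely. Over 16 libraries, Pearson's r of log2 levels between them was 0.908, among 295 names compared. Next came miR-30b-5p (0.825), miR-152-3p (0.794), miR-1839-5p (0.715) and miR-186-5p (0.706). Within the cluster miR-322-5p had r of 0.753 with miR-322-3p and 0.742 with miR-503-5p, but 0.178 with miR-351-5p. With miR-542-3p as listed, most of whose reads do not match its hairpin, r was -0.29. These values share libraries and depth and are given as a description.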

How the data were processed

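The tables are unitas output, per the file headers, and the submitters' processing notes list cutadapt 1.15, STAR 2.5.4 and mm10. Each deposited table lists sequences with a miRNA name and a count of reads. These were assumed to be expected counts, fractional where a read fits several names, without normalization by the authors. Listed sequences are 13 to 75 nt long. Expected counts were summed per name and rounded, and 236 of 2510 names were merged into another, which left 2274. One edgeR 4.0.16 fit (R 4.3.3) over 16 libraries, with TMM scaling, filterByExpr by group and a coefficient per group, gave quasi-likelihood tests on 807 names, adjusted by Benjamini-Hochberg. Shares were compared by two-sided exact permutation of 4 against 4 libraries over 70 assignments. Likeness used log2 of TMM-scaled CPM plus 1. Tail shares needed at least 20 reads in each library. In the smallest library 3 counts correspond to 26.6 CPM and in the largest to 0.458 CPM. Reads carry no molecular identifiers, so these floors cover counting error only. The statistics were checked on simulated data for DM3 against GM in control. There, 6 of 62 names with a log2 change of 1 were called, 44 of 57 with 2 and 67 of 67 with 3. Of 585 names without a change, 3 were called. A change of 1 was thus mostly missed, so a member that was not called is not shown to be unchanged. Alternatives were DESeq2 1.42.0, other scalings, filters, blocks and counting rules, and each library left out.

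The members, lists and tests were chosen with earlier results of these data known. The text names all 7 members, relatives from fixed lists, and the 5 names most like miR-322-5p among those that average 100 CPM or more in some group.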

Additional observations from a re-analysis of the deposited data

Results flagged for a closer look

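Among 76 groups of 4 libraries checked for a library far from the other 3, 4 had one, and chance gives about 1 in 20 groups. miR-322-3p was at 386 TMM-scaled CPM in line 1 replicate 1 of control GM, with the others at 825 to 852. The 5p share of miR-351 was 99.7% in line 1 replicate 2 of control DM3, where the others lay between 99.5% and 99.6%. The tail share of miR-322-5p was 0% in line 1 replicate 1 of tKO DM3, which rests on 25 reads, with the others at 8.02% to 8.54%. The tail share of miR-351-3p was 26.9% in line 2 replicate 1 of tKO GM, with the others at 36.4% to 37.5%.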

How the results depend on the processing

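The threshold calls on members were not stable. In control DM3 against GM, where 1 member was called, total counts, reads without mismatch, 18 to 25 nt and the hairpin match gave 2, and the hairpin match with a replicate block gave 3. In each of the 4 settings with 2, the called members were miR-322-3p and miR-351-5p, both higher, and miR-351-3p was not called. Of all names, 26.6% to 35.6% were called in control under these 5 settings. No filter, the stricter filter of 100 CPM in 4 libraries, replicates of a line summed, replicate 1 alone and replicate 2 alone gave 0. Of all names, 9.28%, 42.3%, 18.5%, 15.1% and 15.9% were called there, in the same order. Leaving out each library gave 0 to 1, with 18.4% to 30.6% of all names called. In tKO, where 1 was called, 2 were called with total counts, the stricter filter, the DESeq2 Wald test, the replicate block, the line block, line and replicate block, no mismatch, 18 to 25 nt, names not merged, the hairpin match and the hairpin match with a replicate block, where 18.96% to 36.6% of all names were called. No filter, lines summed, only the groups compared, replicate 1 alone and replicate 2 alone gave 0 in tKO. Of all names, 5.45%, 10.1%, 11.9%, 22.2% and 6.32% were called there, in the same order. With each library left out, 0 to 1 members were called in tKO. Both genotype comparisons and the interaction gave 0 under all alternatives run. The cause of these differences was not tested. The stricter filter left no value for miR-351-3p. Total counts moved the median of all names to 0.39 in control and 0.24 in tKO, against 0.02 and 0.01 with TMM.

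Replicate numbers paired the libraries weakly and not in every comparison, by correlations of their deviations over 551 names. Between media, libraries with the same number correlated at 0.127 on average for control and at 0.00767 for tKO. Those with different numbers correlated at -0.129 and 0.0134. Between genotypes, the same number gave 0.104 in DM3 and 0.211 in GM, and different numbers gave -0.104 and -0.203. The same number thus gave the higher average except between media for tKO. Each comparison also held negative pairs with the same number. GM and DM3 libraries of a genotype also share lines. For DM3 against GM, libraries of the same line correlated at 0.101 in control and 0.193 in tKO, with negative pairs in each. Those of different lines correlated at -0.103 and -0.172. The line block called miR-351-5p in tKO as well as miR-322-3p. With the counts as listed, the replicate block changed no call on a member other than miR-351-5p in tKO (log2 0.73, edgeR adjusted p = 0.0334), whose level did differ by replicate number. With the hairpin match, the block added miR-351-3p in control (log2 -0.83, edgeR adjusted p = 0.0381).

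Directions turned for differences of which none was called by edgeR. Before the turn they ran to -0.65 on the log2 scale, for miR-542-3p in tKO and in its interaction. The cause of each turn was not tested. miR-322-5p and miR-322-3p, tKO against control in GM, were 0.052 and 0.0069 with replicate 1 alone. miR-322-3p, tKO against control in DM3, was -0.073 with lines summed and -0.14 with replicate 2 alone. miR-503-5p in tKO DM3 against GM was -0.13 with replicate 1 alone and -0.043 to 0.81 with a library left out. In GM between genotypes it was 0.00082 with DESeq2 size factors, 0.0045 with the stricter filter, 0.044 at 18 to 25 nt, 0.44 with replicate 1 alone, 0.046 with the hairpin match and -0.71 to 0.27 with a library left out. miR-503-3p in control DM3 against GM was 0.044 with total counts, 0.0043 without mismatches, 0.12 at 18 to 25 nt, 0.011 with replicate 2 alone, 0.073 with the hairpin match and 0.038 with its replicate block. In DM3 between genotypes it was -0.094 with replicate 2 alone and -0.055 to 0.50 with a library left out. miR-351-3p there was -0.033 at 18 to 25 nt, -0.19 with replicate 1 alone and -0.082 to 0.34 with a library left out. miR-16-5p and miR-15a-5p in tKO were 0.15 and 0.197 with replicate 2 alone. miR-195a-5p in tKO was 0.203 with total counts, 0.231 with lines summed, 0.0074 with only the groups compared, 0.190 without mismatches, 0.160 at 18 to 25 nt, 0.388 with replicate 2 alone, 0.148 with the hairpin match, 0.013 with names not merged and -0.33 to 0.322 with a library left out.

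miR-542-3p in control DM3 against GM was 0.0028 with DESeq2 size factors, 0.45 with total counts, 0.18 with the stricter filter, 0.00061 with the line block and 0.040 with only the groups compared. It was 0.043 at 18 to 25 nt, 0.58 with replicate 1 alone, 0.012 with the hairpin match, 0.021 with its replicate block, 0.016 with names not merged and -0.48 to 0.19 with a library left out. In tKO it was 0.27 without mismatches, 0.23 at 18 to 25 nt, 0.14 with replicate 1 alone, 0.31 with the hairpin match and 0.38 with its replicate block. Between genotypes in DM3 it was 0.17 with the stricter filter, 0.11 with only the groups compared, 0.88 without mismatches, 0.86 at 18 to 25 nt, 0.33 with replicate 2 alone, 0.91 with the hairpin match, 0.92 with its replicate block, 0.018 with names not merged and -0.30 to 0.38 with a library left out. Its interaction was 0.34 without mismatches, 0.19 at 18 to 25 nt, 0.30 with the hairpin match and 0.36 with its replicate block. miR-450a-5p in control was 0.0037 with DESeq2 size factors, 0.41 with total counts, 0.16 with the stricter filter, 0.00029 with the line block and 0.049 with only the groups compared. It was 0.28 without mismatches, 0.39 at 18 to 25 nt, 0.19 with replicate 1 alone, 0.34 with the hairpin match, 0.33 with its replicate block, 0.057 with names not merged and -0.34 to 0.13 with a library left out.

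Differences of shares are in percentage points. With a library left out, the 5p share ranged from -2.19 to 0.553 for miR-322 between genotypes in GM, and for miR-503 from -7.89 to 3.49 in control, -6.69 to 4.63 in tKO and -0.601 to 10.7 between genotypes in GM. The summed share of miR-322-5p and miR-503-5p between genotypes ranged from -2.98 to 0.107 in GM and -4.83 to 1.72 in DM3. That of miR-351-5p in DM3 was 0.283 without mismatches, 0.0655 at 18 to 25 nt, 0.291 with the hairpin match and -3.06 to 2.63 with a library left out. Tail shares turned too. For miR-503-3p in tKO they were 0.569 without mismatches, 0.774 with the hairpin match and -2.86 to 0.659 with a library left out. miR-351-3p between genotypes in GM was -1.95 both without mismatches and with the hairpin match, -0.9896 at 18 to 25 nt and -1.70 to 6.58 with a library left out. miR-542-3p between genotypes in GM was 1.78 without mismatches and -8.13 to 2.61 with a library left out. In DM3 it was 1.72, 1.43 at 18 to 25 nt, 4.30 with the hairpin match and -14.7 to 0.0203 with a library left out. Other tail ranges with a library left out, between genotypes, were -1.0003 to 1.85 for miR-322-5p, -1.77 to 0.958 for miR-322-3p and -2.29 to 1.97 for miR-503-5p in DM3, and -1.76 to 1.64 for miR-503-5p and -2.25 to 1.36 for miR-503-3p in GM. For miR-542-3p in control DM3 against GM the range was -8.20 to 1.23.

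The hairpin match, names not merged, and line and replicate block together were chosen after the data were seen. Depth limits the values that rest on few reads: the smallest library held 4 reads of miR-351-3p, 4 hairpin-matched reads of miR-542-3p, 2 reads of miR-15a-5p and 1 of miR-195a-5p.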
